A study of Homo sapiens with 35 samples.

Results

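The 41 genes described here carry the transcriptional response to stress in the endoplasmic reticulum (ER), including the genes that the transcription factor ATF4 switches on. They were taken by name from the deposited gene table, and all 41 were found among its 28503 entries. They fall into 6 stress sensors and transcription factors, 20 targets of ATF4, and 15 genes for ER chaperones, folding enzymes and the degradation of misfolded proteins, which are known targets of XBP1 or ATF6. All 41 passed the filter on low counts in the table as a whole.

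Unfolded protein in the ER activates the membrane proteins ERN1 (also called IRE1), EIF2AK3 (PERK) and ATF6. ERN1 splices the mRNA of XBP1, and ATF6 is cut to release a transcription factor. Together they raise chaperone and degradation genes. EIF2AK3 phosphorylates the translation factor eIF2, which lowers protein synthesis in general but raises translation of ATF4, a step also driven by the other eIF2 kinases when amino acids, haem or viral RNA are sensed. ATF4 is thus controlled largely at translation, so its mRNA is a poor guide to its protein. Its targets include genes for amino acid uptake, serine and one-carbon metabolism and tRNA charging. Each level below is an mRNA level, and protein, XBP1 splicing and eIF2 phosphorylation were not measured in the data analysed here.

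RNA sequencing gave the mRNA levels of DU145 cells, an established line from a brain metastasis of a prostate cancer. They expressed a short hairpin RNA against ZMYND8 (shZMYND8), a hairpin against JARID1D (shJARID1D), or a control hairpin against luciferase (shLuciferase), with 2 libraries each, and no group is without a hairpin. ZMYND8 is a reader of histone marks, and JARID1D, the product of KDM5D, is a demethylase of histone H3. The study's title asks how ZMYND8 restrains genes linked to metastasis. The labels name no hairpin sequence, no clone and no separate cultures, so the p-values rest on the spread between libraries alone, and that spread may be technical.

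The deposited counts summed to 22925611 to 25001300 per library. ZMYND8 stood at 35.5 and 33.2 CPM (counts scaled to the library's size) in shZMYND8, 69.7 and 63.7 CPM in shJARID1D, and 64.7 and 52.7 CPM in shLuciferase. KDM5D stood at 55.5 and 59.9 CPM in shZMYND8, 19.6 and 17.9 CPM in shJARID1D, and 58.1 and 61.0 CPM in shLuciferase. All 5 epithelial markers were present, with summed levels of 1100.4 and 1222 CPM in shZMYND8, 963 and 1131 CPM in shJARID1D, and 1321 and 1862 CPM in shLuciferase. Single markers moved apart: relative to shLuciferase, EPCAM and KRT19 fell in shZMYND8 (log2 fold changes of -1.68 and -1.16, adjusted p = 0.000546 and 0.00184 by edgeR) and CDH1 rose (1.01, adjusted p = 0.013 by edgeR). In shJARID1D KRT8 and KRT18 fell (-0.86 and -0.67, adjusted p = 0.0465 and 0.0349 by edgeR). Of the prostate luminal markers KLK2 had no counts in any library, and KLK3 and TMPRSS2 had at most 0.13 CPM. The 10 markers of immune, endothelial, stromal and neural cells summed to 65.7 and 54.1 CPM in shZMYND8, 50.5 and 50.3 CPM in shJARID1D, and 41.9 and 48.5 CPM in shLuciferase. Most of each sum was CD68, at 55.4 and 44.7 CPM in shZMYND8, 42.6 and 42.2 CPM in shJARID1D, and 34.8 and 41.4 CPM in shLuciferase. CD68 did not pass between shZMYND8 and shLuciferase (0.39, adjusted p = 0.091 by edgeR). Of the 10 markers, 5 could be tested and COL1A1 was higher in shZMYND8 than in shLuciferase (1.65, adjusted p = 0.026 by edgeR). CD3E had no counts in any library and PTPRC at most 0.04 CPM. The part of these markers in the results was not tested. In bulk RNA, fewer cells of a kind and less RNA per cell cannot be told apart.

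The promoters of the genes were searched for the binding elements of the pathway, which uses no expression value. The members were grouped as known targets of these factors, so elements in their promoters are no independent evidence. RefSeq windows on GRCh38.p14, from 250 bases before to 50 bases after an annotated start, were found for 37 members, 1 of them through a synonym. The ER stress element ERSE (CCAAT, any 9 bases, CCACG), known to bind ATF6 together with NF-Y, was found on either strand in 5 of 14 chaperone and XBP1 targets, in XBP1 itself among the 6 sensors and factors, and in 0 of 17 ATF4 targets. It occurs in 27 of 34796 windows of the same length, 0.0776%. The related element ERSE-II (ATTGG, any 1 base, CCACG), which shares the CCACG end with ERSE and holds the CCAAT letters on the other strand, was found in HERPUD1 and SDF2L1 and in 0.0546% of all windows. The core TGATGNAA of the C/EBP-ATF response element (CARE), the site of ATF4 with a C/EBP partner, was found in 5 of 17 ATF4 targets, in HERPUD1 among the chaperone and XBP1 targets, in CREB3L2, and in 3.63% of all windows. Of the other motifs searched, the core TGACGTGG of the XBP1 element was found in no member and in 0.733% of all windows, and the cyclic AMP element TGACGTCA in CREB3L2 and PPP1R15A and in 1.84%. A gene with several annotated starts had several windows, a match is no proof of binding, and no match says only that these letters are not in this window.

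The stretches below show examples of the elements from genes that are described further on, among them HERPUD1, which holds an element of either kind. Each runs 5′ to 3′ toward the gene on its own strand, with the element in capitals. In CALR, SDF2L1, CHAC1, AARS and the CARE of HERPUD1 the capitals show the element's reverse complement.
HSPA5, ERSE, chr9:125241361-125241439, minus strand: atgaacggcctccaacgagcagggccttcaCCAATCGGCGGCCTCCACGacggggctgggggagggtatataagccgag
PDIA6, ERSE, chr2:10812823-10812901, minus strand: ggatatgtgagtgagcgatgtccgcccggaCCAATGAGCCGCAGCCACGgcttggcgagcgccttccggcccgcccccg
XBP1, ERSE, chr22:28800573-28800651, minus strand: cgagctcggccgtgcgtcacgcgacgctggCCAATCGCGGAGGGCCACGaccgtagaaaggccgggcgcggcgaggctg
CALR, ERSE, chr19:12938359-12938432, plus strand: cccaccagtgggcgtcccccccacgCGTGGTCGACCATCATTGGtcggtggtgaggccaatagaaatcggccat
SDF2L1, ERSE-II, chr22:21642084-21642154, plus strand: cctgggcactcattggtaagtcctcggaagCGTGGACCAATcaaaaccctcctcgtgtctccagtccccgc
HERPUD1, ERSE-II, chr16:56931995-56932065, plus strand: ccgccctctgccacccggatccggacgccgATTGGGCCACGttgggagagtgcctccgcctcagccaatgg
HERPUD1, CARE core, chr16:56931936-56932003, plus strand: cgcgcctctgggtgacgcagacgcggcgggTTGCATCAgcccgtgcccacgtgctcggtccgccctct
CEBPG, CARE core, chr19:33374041-33374108, plus strand: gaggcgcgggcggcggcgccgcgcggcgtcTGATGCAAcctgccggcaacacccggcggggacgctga
CHAC1, CARE core, chr15:40953232-40953299, plus strand: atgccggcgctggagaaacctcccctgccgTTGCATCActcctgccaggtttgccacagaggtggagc
AARS, CARE core, chr16:70289656-70289723, minus strand: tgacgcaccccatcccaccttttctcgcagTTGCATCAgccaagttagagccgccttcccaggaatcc
ASNS, CARE core, chr7:97872439-97872506, minus strand: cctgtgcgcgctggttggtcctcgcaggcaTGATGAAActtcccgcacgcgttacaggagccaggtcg

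Few of the members passed the test in either knockdown. Between shZMYND8 and shLuciferase 7 of the 41 genes changed, with ERN1, CREB3L2, SESN2, CEBPB and CEBPG higher and ATF6 and PDIA6 lower. That is 17.1% of the members, against 16.2% of all 15867 genes tested (8.89% higher and 7.34% lower). Between shJARID1D and shLuciferase 3 genes changed, with CREB3L2 higher and MTHFD2 and DNAJB9 lower, 7.32% of the members against 5.75% of all genes tested (2.96% higher and 2.79% lower). The shares of members called were near those of all genes in both. Between shZMYND8 and shJARID1D, tested directly, 12 genes differed, 10 higher and 2 lower in shZMYND8, which is 29.3% of the members against 15.7% of all genes tested (8.67% higher and 7.02% lower). The 10 higher were ERN1, CHAC1, SESN2, MTHFD2, VLDLR, AARS, HSPA5, DNAJB9, CANX and EDEM1, and the 2 lower were ATF6 and PDIA6. Here and below a gene is called at an adjusted p under 0.05, from the quasi-likelihood test of edgeR corrected over the whole table by the Benjamini-Hochberg method. Log2 fold changes are given ± their standard errors, and each group has 2 libraries. The libraries of the groups did not overlap for 26 of 41 members (63.4%) between shZMYND8 and shLuciferase, for 26 (63.4%) between shJARID1D and shLuciferase, and for 30 (73.2%) between the knockdowns, against 57.8%, 51.9% and 65.4% of all genes tested. The comparisons of each knockdown with shLuciferase share the control libraries.

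**Figure D1:**
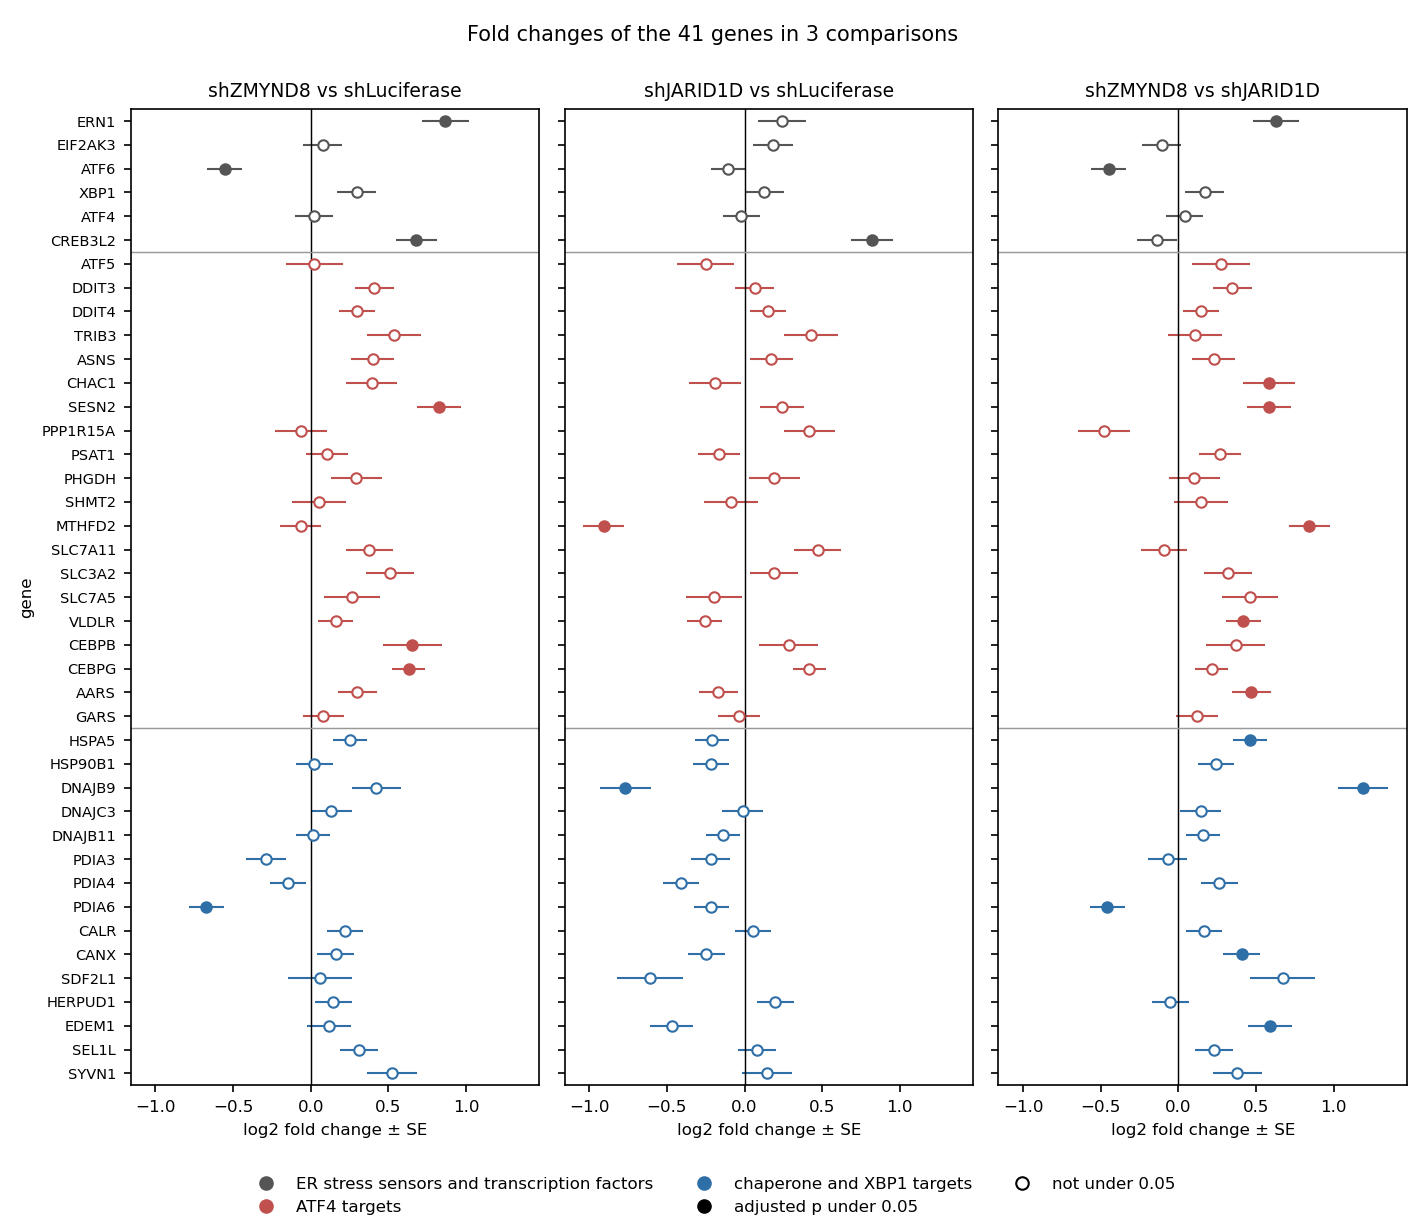
Log2 fold change (horizontal axis, with bars of 1 standard error) of the 41 genes, listed down the page as sensors and factors, ATF4 targets, and chaperone and XBP1 targets, in shZMYND8 vs shLuciferase, shJARID1D vs shLuciferase and shZMYND8 vs shJARID1D; filled points have an adjusted p under 0.05. There are 7, 3 and 12 filled points, and in the first panel 35 of 41 points lie right of 0.

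These counts depend on single libraries. Between shZMYND8 and shLuciferase fewer members were called without either shZMYND8 library or without shJARID1D replicate 2, and more without either shLuciferase library. Between shJARID1D and shLuciferase fewer were called when any library of either knockdown was left out, and more without either shLuciferase library. Between shZMYND8 and shJARID1D fewer were called when any library of either knockdown was left out, and more without either shLuciferase library. In each of these fits the share of all genes called moved the same way. A group left with a lone library takes its spread from the other groups, which assumes that it varies as they do.

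Among the sensors and factors, the sensor gene ERN1 was higher and the sensor gene ATF6 lower in shZMYND8, while EIF2AK3 did not pass in any comparison. ERN1 stood at 16.5 and 15.5 CPM in shZMYND8, 10.6 and 10.1 CPM in shJARID1D, and 8.22 and 9.34 CPM in shLuciferase. Both shZMYND8 libraries lay above the other 4, and the shJARID1D libraries lay between. ERN1 was 1.82-fold higher in shZMYND8 than in the shLuciferase controls (0.87 ± 0.15 on the log2 scale, adjusted p = 0.00495), and higher than in shJARID1D by 0.63 ± 0.15 (adjusted p = 0.022). The direct calls of ERN1 and ATF6 were lost when any library of either knockdown was left out, with adjusted p up to 0.15 and 0.213. Without shZMYND8 replicate 1 the change against shLuciferase was 0.82 (adjusted p = 0.0621, the highest of a range from 0.00418).

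ATF6 stood at 44.2 and 46.8 CPM in shZMYND8, 64.7 and 59.4 CPM in shJARID1D, and 67.1 and 66.5 CPM in shLuciferase. Both shZMYND8 libraries lay below all others. ATF6 fell by 0.55 ± 0.11 on the log2 scale in shZMYND8 relative to shLuciferase (adjusted p = 0.0101) and had a log2 fold change of -0.45 ± 0.11 relative to shJARID1D (adjusted p = 0.0268). For the fall against shLuciferase, leaving out shZMYND8 replicate 1 gave an adjusted p of 0.116 and leaving out its replicate 2 gave 0.0691, within 0.00895 to 0.116 over the libraries left out. EIF2AK3 stood at 19.8 and 21.2 CPM in shZMYND8, 23.0 and 21.2 CPM in shJARID1D, and 20.01 and 18.8 CPM in shLuciferase, so the levels of shZMYND8 and shLuciferase overlap.

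CREB3L2, a membrane-bound transcription factor gene of the same family as ATF6, was the 1 member higher in both knockdowns. It stood at 19.2 and 20.8 CPM in shZMYND8, 22.5 and 21.5 CPM in shJARID1D, and 13.1 and 11.8 CPM in shLuciferase. All 4 knockdown libraries lay above both controls. The log2 fold change was 0.68 ± 0.13 in shZMYND8 (adjusted p = 0.00878) and 0.82 ± 0.13 in shJARID1D (adjusted p = 0.0139), against the same control libraries. Without shZMYND8 replicate 1 or replicate 2 the adjusted p in shZMYND8 was 0.0583 or 0.0854, within 0.00619 to 0.0854. Without shJARID1D replicate 1 or replicate 2 that in shJARID1D was 0.127 or 0.0779, within 0.00608 to 0.127.

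The mRNAs of ATF4 and XBP1 themselves did not pass. ATF4 stood at 507 and 482 CPM in shZMYND8, 466 and 495 CPM in shJARID1D, and 456 and 520.4 CPM in shLuciferase, with all groups overlapping. Its log2 fold change was 0.02 in shZMYND8 with a 95% interval from -0.25 to 0.29, and -0.02 in shJARID1D with an interval from -0.29 to 0.25. XBP1 stood at 153 and 135 CPM in shZMYND8, 134 and 123 CPM in shJARID1D, and 125 and 110 CPM in shLuciferase. Both shZMYND8 libraries lay above both controls, but the log2 fold change of 0.30 ± 0.13 did not pass (adjusted p = 0.138), and the count of XBP1 does not separate its spliced form.

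**Figure D2:**
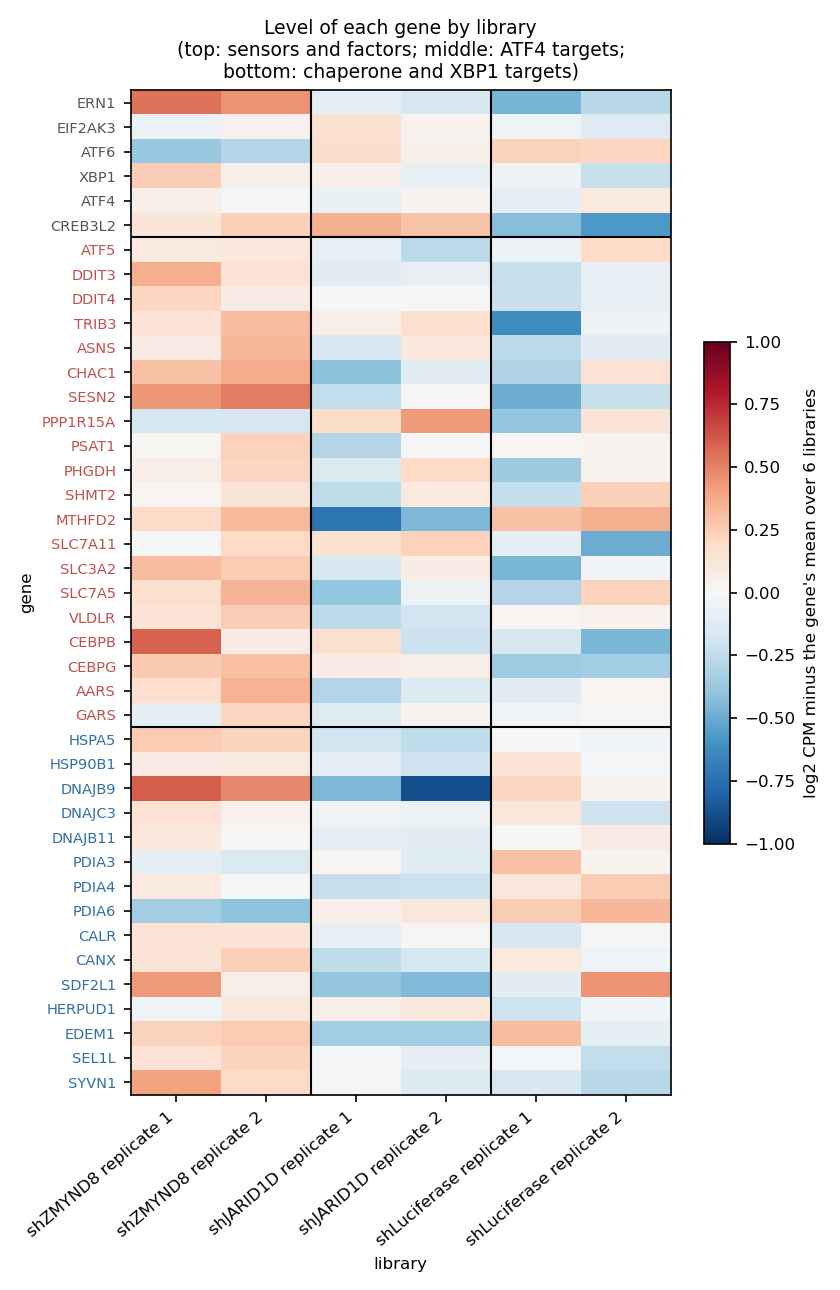
Log2 CPM of each of the 41 genes in each of the 6 libraries, minus the gene's mean over the libraries (colour, red above and blue below the mean); rows are grouped as sensors and factors, ATF4 targets, and chaperone and XBP1 targets, and columns run from shZMYND8 to shLuciferase. ERN1, SESN2 and DNAJB9 are red in both shZMYND8 libraries, and most ATF4 targets are bluer in replicate 1 of shLuciferase than in replicate 2.

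Of the 20 ATF4 targets, 3 rose in shZMYND8 relative to shLuciferase and 17 did not pass, against 8.89% of all genes tested that rose. At an unadjusted p under 0.05, 11 were higher and none lower, against 16% of all genes tested that were higher and 15.3% lower. The median log2 fold change of the 20 was 0.30, against -0.01 over all genes tested, and 18 of 20 were above 0. The range ran from -0.06 for MTHFD2 to 0.82 for SESN2. Without shLuciferase replicate 2 there were 7 rising targets and a median of 0.42, and without shLuciferase replicate 1 there were 4 and a median of 0.21.

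SESN2, an inhibitor of the growth kinase complex mTORC1, rose most among the ATF4 targets. It stood at 39.4 and 41.7 CPM in shZMYND8, 24.7 and 29.4 CPM in shJARID1D, and 20.8 and 25.02 CPM in shLuciferase. Both shZMYND8 libraries lay above all others, while shJARID1D and shLuciferase overlapped. SESN2 was 1.77-fold higher than in shLuciferase (0.82 ± 0.14, adjusted p = 0.00493) and higher than in shJARID1D too (0.58 ± 0.14, adjusted p = 0.0239), where leaving out a library of either knockdown gave adjusted p up to 0.184 and no filter on low counts gave 0.0511. The call against shLuciferase held whichever library was left out, with adjusted p from 0.00217 to 0.0471.

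CEBPG, the C/EBP partner with which ATF4 binds the CARE, also carries the CARE core in its own promoter window, printed above. It stood at 135 and 139 CPM in shZMYND8, 119 and 118 CPM in shJARID1D, and 88.2 and 89.4 CPM in shLuciferase. The groups do not overlap, in the order shZMYND8, shJARID1D, shLuciferase. CEBPG rose by 0.63 ± 0.11 in shZMYND8 (adjusted p = 0.00469), and leaving out any library kept the call (adjusted p 0.00528 to 0.0488). In shJARID1D its log2 fold change was 0.42 ± 0.11 with an adjusted p of 0.0529. That change passed with library totals, with a mean count of at least 50, by DESeq2 (adjusted p = 0.0174) and without shLuciferase replicate 1 (0.0465, within 0.0465 to 0.292 over the libraries left out). The difference between the knockdowns did not pass (adjusted p = 0.202).

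CEBPB, another C/EBP factor gene, varied more between libraries. It stood at 96.3 and 67.8 CPM in shZMYND8, 71.8 and 55.2 CPM in shJARID1D, and 57.5 and 46.8 CPM in shLuciferase. Replicate 2 of shZMYND8 lay below replicate 1 of shJARID1D. The rise against shLuciferase of 0.65 ± 0.19 (adjusted p = 0.0441) was lost without shZMYND8 replicate 1 (0.37, adjusted p = 0.363), shLuciferase replicate 2 (0.51, adjusted p = 0.115) or shJARID1D replicate 2 (0.65, adjusted p = 0.0528), within 0.0229 to 0.363. It was also lost with no filter on low counts or with unquantified genes kept, with adjusted p up to 0.109.

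DDIT3, the pro-apoptotic factor CHOP, did not pass. It stood at 57.5 and 49.2 CPM in shZMYND8, 41.7 and 42.4 CPM in shJARID1D, and 38.2 and 42.2 CPM in shLuciferase. Both shZMYND8 libraries lay above the other 4, with a log2 fold change against shLuciferase of 0.41 ± 0.13 (adjusted p = 0.0531), and adjusted p from 0.0314 to 0.372 over the libraries left out. It passed without shLuciferase replicate 2, with library totals and with a mean count of at least 50. Its feedback inhibitor TRIB3 and the amino acid transporter subunit SLC3A2 had log2 fold changes of 0.54 ± 0.17 and 0.51 ± 0.15 (adjusted p = 0.0641 and 0.0507). The libraries of TRIB3 did not overlap, at 198 and 222 CPM in shZMYND8, against 116 and 173 CPM in shLuciferase, but the controls lay far apart. PPP1R15A is the eIF2 phosphatase subunit GADD34 that ends the response. Its levels were 62.4 and 62.7 CPM in shZMYND8 and 53.7 and 76.9 CPM in shLuciferase, which overlap. In shJARID1D PPP1R15A stood at 79.9 and 94.6 CPM, above both other groups. Its log2 fold change there was 0.42 ± 0.17 against shLuciferase (adjusted p = 0.166 by edgeR). Between the knockdowns it was -0.48, the lowest of the 20 ATF4 targets, and did not pass.

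A further 5 ATF4 targets, ASNS, SLC7A11, DDIT4, ATF5 and GARS, did not pass in any comparison. ASNS, the asparagine synthetase whose window holds the CARE core shown above, stood at 150.1 and 178 CPM in shZMYND8, 128 and 153 CPM in shJARID1D, and 118 and 131 CPM in shLuciferase. Both shZMYND8 libraries lay above the controls (0.40 ± 0.14, adjusted p = 0.0796), and shJARID1D overlapped with both other groups. SLC7A11, the cystine transporter subunit, stood at 342 and 393 CPM in shZMYND8, 381 and 403 CPM in shJARID1D, and 322 and 244 CPM in shLuciferase. Both knockdowns lay above the controls, with log2 fold changes of 0.38 ± 0.15 in shZMYND8 and 0.47 ± 0.15 in shJARID1D (adjusted p = 0.117 and 0.096). DDIT4, another inhibitor of mTORC1, had 0.30 ± 0.12 in shZMYND8 (adjusted p = 0.108), while the transcription factor gene ATF5 and the glycyl-tRNA synthetase gene GARS had 0.02 ± 0.18 and 0.08 ± 0.13 (adjusted p = 0.949 and 0.731).

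In shJARID1D MTHFD2, a mitochondrial enzyme of one-carbon metabolism, fell, and the other 19 ATF4 targets did not pass. MTHFD2 stood at 197 and 240.1 CPM in shJARID1D, 374 and 410.4 CPM in shZMYND8, and 402 and 419 CPM in shLuciferase. Both shJARID1D libraries lay below all others, by 1.88-fold relative to shLuciferase (-0.91 ± 0.13, adjusted p = 0.00972). MTHFD2 was higher in shZMYND8 than in shJARID1D by 0.84 ± 0.13 (adjusted p = 0.0037). The fall against shLuciferase had an adjusted p of 0.127 without shJARID1D replicate 1 and 0.0529 without replicate 2, within 0.00518 to 0.127, and the direct difference 0.0509 without shJARID1D replicate 1. RefSeq names 7 MTHFD2 pseudogenes, whose reads could be shared with it.

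Its neighbours in serine and one-carbon metabolism did not fall with it past the test in shJARID1D. SHMT2, the mitochondrial serine enzyme, had a log2 fold change of -0.09 ± 0.17, and its count is marked as a failed estimate in shZMYND8 replicate 1. PSAT1 and PHGDH, enzymes of serine synthesis, had -0.17 ± 0.14 and 0.19 ± 0.16 (adjusted p = 0.5 and 0.524). The median of the 20 ATF4 targets in shJARID1D was 0.11, with 11 above 0, and 0.00 over all genes tested.

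Between the knockdowns, CHAC1, VLDLR and AARS were also higher in shZMYND8, beside SESN2 and MTHFD2. CHAC1, which degrades glutathione, stood at 41.3 and 43.8 CPM in shZMYND8 and 25.45 and 31.3 CPM in shJARID1D, with 27.4 and 37.4 CPM in shLuciferase. The lipoprotein receptor gene VLDLR stood at 53.3 and 57.7 CPM in shZMYND8 and 40.5 and 42.5 CPM in shJARID1D, with 49.2 and 50.03 CPM in shLuciferase. AARS, the alanyl-tRNA synthetase, stood at 628 and 712 CPM in shZMYND8 and 457 and 510.4 CPM in shJARID1D, with 521 and 568 CPM in shLuciferase. Both knockdowns' libraries stand apart in all 3 genes, with the controls nearer to shJARID1D for CHAC1 and AARS. The log2 fold changes were 0.58 ± 0.17, 0.42 ± 0.11 and 0.47 ± 0.13 (adjusted p = 0.042, 0.0354 and 0.0328). Each of these calls was lost when any library of either knockdown was left out, with adjusted p up to 0.258, 0.239 and 0.229. With no filter on low counts they were lost too, at up to 0.0888, 0.0581 and 0.0558.

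**Figure D3:**
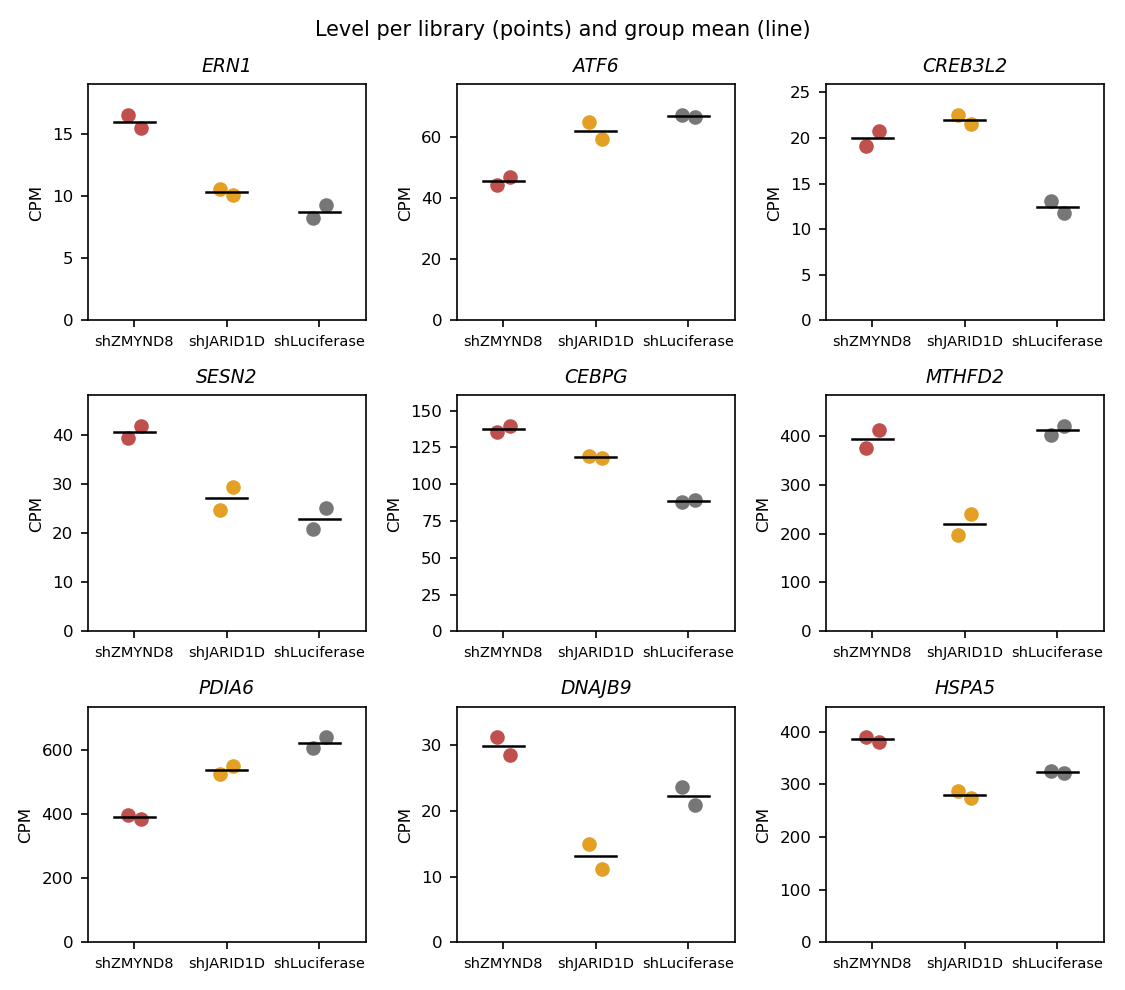
CPM (vertical axis, from 0) of 9 genes in each library of shZMYND8, shJARID1D and shLuciferase; points are libraries and lines are group means. ATF6 and PDIA6 are lowest in shZMYND8, MTHFD2 and DNAJB9 are lowest in shJARID1D, and CREB3L2 is above the control in both knockdowns.

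Of the 15 chaperone and XBP1 targets, PDIA6 fell in shZMYND8 and the other 14 did not pass, against 7.34% of all genes tested that fell. PDIA6, a disulfide isomerase that also attenuates the stress sensors, stood at 399 and 384 CPM in shZMYND8, 525 and 550.1 CPM in shJARID1D, and 606 and 640.3 CPM in shLuciferase. The groups do not overlap. The fall was 1.59-fold relative to shLuciferase (-0.67 ± 0.11, adjusted p = 0.00423) and was called whichever library was left out (adjusted p 0.00348 to 0.0474). Relative to shJARID1D its log2 fold change was -0.46 ± 0.11 (adjusted p = 0.0246).

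PDIA6 shares the ERSE with HSPA5, CANX, HSP90B1 and CALR, and none of those 4 passed between shZMYND8 and shLuciferase. HSPA5 (BiP), the main ER chaperone and the usual marker of ER stress, stood at 389 and 381 CPM in shZMYND8, 287 and 273 CPM in shJARID1D, and 326 and 321 CPM in shLuciferase. The groups do not overlap, with the controls in the middle. Its log2 fold changes of 0.25 ± 0.11 in shZMYND8 and -0.21 ± 0.11 in shJARID1D did not pass (adjusted p = 0.148 and 0.292), but the direct difference of 0.46 ± 0.11 did (adjusted p = 0.0225). CANX, the membrane lectin chaperone calnexin, stood at 1571 and 1684 CPM in shZMYND8, 1195 and 1262 CPM in shJARID1D, and 1527 and 1387 CPM in shLuciferase, and also passed between the knockdowns (0.41 ± 0.12, adjusted p = 0.0444). HSP90B1 and CALR, an ER chaperone of the HSP90 family and the lectin chaperone calreticulin, had direct differences of 0.24 ± 0.12 and 0.16 ± 0.12 (adjusted p = 0.189 and 0.368). The direct calls of HSPA5, PDIA6 and CANX were lost when any library of either knockdown was left out, with adjusted p up to 0.185, 0.167 and 0.246. That of CANX was also lost with library totals, no filter or unquantified genes kept (adjusted p up to 0.0683).

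DNAJB9, a co-chaperone of HSPA5 and a known XBP1 target that represses ERN1, differed most between the knockdowns of all members. It stood at 31.2 and 28.5 CPM in shZMYND8, 14.997 and 11.1 CPM in shJARID1D, and 23.6 and 20.9 CPM in shLuciferase. The groups do not overlap. DNAJB9 was 2.28-fold higher in shZMYND8 than in shJARID1D (1.19 ± 0.16, adjusted p = 0.00229), a call that leaving out any library kept (adjusted p up to 0.0272). In shJARID1D it fell by 0.77 ± 0.16 relative to shLuciferase (adjusted p = 0.0295), a call lost when any library of either knockdown was left out (adjusted p 0.0186 to 0.197), with library totals as scaling, with no filter, or with these groups fitted alone. In shZMYND8 its change of 0.42 ± 0.16 did not pass (adjusted p = 0.098). EDEM1, a lectin of ER-associated degradation and another XBP1 target, stood at 129 and 131 CPM in shZMYND8, 86.6 and 86.4 CPM in shJARID1D, and 137 and 103 CPM in shLuciferase. It was higher in shZMYND8 than in shJARID1D (0.59 ± 0.14, adjusted p = 0.0231), and this call was lost without any library of either knockdown (adjusted p up to 0.142) or with no filter (0.0555).

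SYVN1 and SEL1L, the ubiquitin ligase and its partner in that degradation, had log2 fold changes in shZMYND8 of 0.52 ± 0.16 and 0.31 ± 0.12 (adjusted p = 0.0518 and 0.113). HERPUD1, the member with an element of either kind, had 0.15 ± 0.12 in shZMYND8 and 0.20 ± 0.12 in shJARID1D (adjusted p = 0.448 and 0.353). The disulfide isomerase genes PDIA3 and PDIA4 had -0.29 ± 0.13 and -0.14 ± 0.12 in shZMYND8 (adjusted p = 0.153 and 0.443), and PDIA4 had -0.41 ± 0.12 in shJARID1D (adjusted p = 0.0713). SDF2L1, an ER chaperone cofactor with the ERSE-II shown above, stood at 15.1 and 11.8 CPM in shZMYND8, 8.61 and 8.27 CPM in shJARID1D, and 10.4 and 15.4 CPM in shLuciferase. Both shJARID1D libraries were lowest, but neither the change against shLuciferase nor the direct difference passed (adjusted p = 0.118 and 0.0573). The HSPA5 co-chaperone genes DNAJC3 and DNAJB11 had 0.13 ± 0.13 and 0.02 ± 0.11 in shZMYND8 (adjusted p = 0.544 and 0.941). The median of the 15 genes was 0.13 in shZMYND8 and -0.21 in shJARID1D, with 12 and 4 of 15 above 0. At an unadjusted p under 0.05, 4 were higher and 2 lower in shZMYND8, against 16% and 15.3% of all genes tested. In shJARID1D none was higher and 4 were lower, against 11.8% and 11.7% of all genes tested.

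Between the branches, the median log2 fold change of the ATF4 targets exceeded that of the chaperone and XBP1 targets by 0.17 in shZMYND8 and by 0.32 in shJARID1D, both against the same controls. Between the knockdowns directly the branches differed by 0.03, with medians of 0.27 for the ATF4 targets and 0.24 for the chaperone and XBP1 targets, against 0.00 over all genes tested. Taken within each library, as the median of log2 CPM minus each gene's mean, the ATF4 targets minus the chaperone and XBP1 targets stood at 0.01 and 0.14 in shZMYND8, -0.05 and 0.14 in shJARID1D, and -0.33 and 0.03 in shLuciferase. On this scale the groups overlapped. No test was made of these lists, whose members were chosen with results of these data known.

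The libraries of a group differed in the ATF4 branch. As the median of log2 CPM minus each gene's mean, the ATF4 targets stood at 0.15 and 0.24 in shZMYND8, -0.15 and 0.00 in shJARID1D, and -0.23 and 0.02 in shLuciferase. On the same scale the chaperone and XBP1 targets stood at 0.14 and 0.10 in shZMYND8, -0.09 and -0.14 in shJARID1D, and 0.10 and -0.02 in shLuciferase. The ATF4 targets were lower in replicate 1 than in replicate 2 in 16 of 20 genes in shZMYND8, 16 of 20 in shJARID1D and 18 of 20 in shLuciferase. Among the chaperone and XBP1 targets this held for 5, 5 and 6 of 15, and among all genes tested for 51.5%, 50.2% and 50.2%. SLC7A5, a transporter of large amino acids, is an example, at 328 and 372 CPM in shZMYND8, 224 and 284 CPM in shJARID1D, and 239 and 344 CPM in shLuciferase. The labels name no batch to which the replicate numbers could belong.

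**Figure D4:**
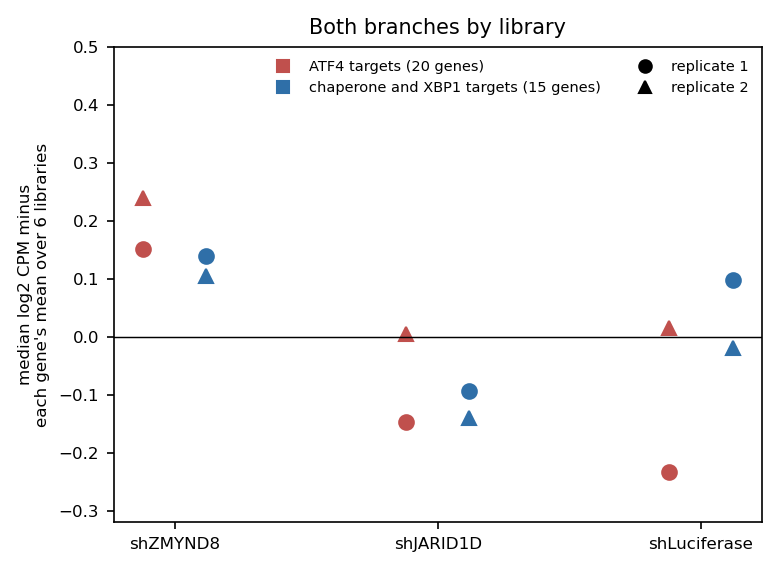
Median over 20 ATF4 targets (red) and 15 chaperone and XBP1 targets (blue) of log2 CPM minus each gene's mean over the 6 libraries, for replicate 1 (circles) and replicate 2 (triangles) of shZMYND8, shJARID1D and shLuciferase. The red circle lies below the red triangle in every group, with -0.23 and 0.02 in shLuciferase, and the blue points order the other way.

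Genes of the same pathways that are not members were counted from lists, also chosen with results of these data known. Of 22 further ATF4 targets 21 were tested. Of these, 38.1% were called higher in shZMYND8 than in shLuciferase, against 8.89% of all genes tested. In shJARID1D 9.52% were, against 2.96%. In shZMYND8, 8 rose relative to shLuciferase, with NUPR1, a stress-induced chromatin factor, at 2.45 ± 0.23, the secreted hormone gene STC2 at 1.12 ± 0.12 and the transcription factor gene ATF3 at 1.29 ± 0.14 (adjusted p = 0.00045, 0.000729 and 0.00076). In shJARID1D, 2 rose, ATF3 by 0.88 ± 0.15 and NUPR1 by 0.93 ± 0.23 (adjusted p = 0.0148 and 0.0488). The medians of the 21 were 0.22 and 0.03. NUPR1 stood at 14.1 and 11.7 CPM in shZMYND8, against 2.51 and 2.23 CPM in shLuciferase. Between the knockdowns 4 were higher in shZMYND8, or 19% against 8.67% of all genes tested. Among them were STC2, NUPR1 and CBS, an enzyme of cysteine synthesis (0.99 ± 0.12, 1.51 ± 0.21 and 0.80 ± 0.15, adjusted p = 0.00148, 0.00244 and 0.00747).

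Of 18 other cytosolic tRNA synthetase genes, WARS rose and NARS fell in shZMYND8, and 16 did not pass. That is 11.1% called, against 16.2% of all genes tested. WARS, which is also known as an interferon-induced gene, stood at 771 and 582 CPM in shZMYND8, against 276 and 219 CPM in shLuciferase (1.45 ± 0.19, adjusted p = 0.00126), and NARS changed by -0.54 ± 0.12 (adjusted p = 0.0133). In shJARID1D none of the 18 was called by edgeR, against 5.75% of all genes tested. An unadjusted p under 0.05 was found for 1 of them, against 23.6%. Between the knockdowns directly, 4 of the 18 were higher and 1 lower in shZMYND8. That is 27.8% called, against 15.7% of all genes tested. Of 12 genes for eIF2 kinases, eIF2 and eIF2B subunits and a phosphatase cofactor, EIF2AK2 rose in both knockdowns and the rest did not pass against shLuciferase. That is 8.33% called in each, against 16.2% of all genes tested in shZMYND8 and 5.75% in shJARID1D. EIF2AK2, the kinase PKR that senses viral RNA and is induced by interferon, stood at 180.2 and 127 CPM in shZMYND8, against 90.1 and 65.1 CPM in shLuciferase (0.98 ± 0.19, adjusted p = 0.00827). Its change in shJARID1D was 0.79 ± 0.19 (adjusted p = 0.044).

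Of 26 further genes of ER folding, secretion and degradation, 1 rose and 3 fell in shZMYND8. That is 15.4% called, against 16.2% of all genes tested. The translocon gene SEC61A1 rose by 0.43 ± 0.13 (adjusted p = 0.0444 by edgeR). The degradation genes DERL2 and UBE2J1 changed by -0.53 ± 0.11 and -0.52 ± 0.11, and SSR3 by -0.50 ± 0.12 (adjusted p = 0.0125, 0.0129 and 0.0234 by edgeR). In shJARID1D 2 fell, WFS1 and DERL1, at -0.67 ± 0.13 and -0.51 ± 0.12 (adjusted p = 0.02 and 0.0394), and both were higher in shZMYND8 than in shJARID1D (adjusted p = 0.0175 and 0.0403). The share of the 26 called in shJARID1D was 7.69%, against 5.75% of all genes tested. The medians of the 26 were -0.02 in shZMYND8 and -0.08 in shJARID1D. Of 9 further sensors and proteases 6 were tested, and CREB3L4, of the family of CREB3L2, rose in shJARID1D (0.75 ± 0.17, adjusted p = 0.0349). That is 16.7% called, against 5.75% of all genes tested. None was called in shZMYND8, against 16.2%.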

How the data were processed

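Of 35 samples, the 6 RNA-seq libraries were analysed and the 29 chromatin samples were not. The deposited values are estimated counts of fragments per gene in the layout of Cuffdiff per the file headers. Per the submitters' processing notes the tools were edgeR 3.12.0, Cuffdiff, Bowtie 1.1.2 and TopHat2 2.0.12 on hg19, with no roles named. The sources used here give neither the annotation nor the strandedness. The table's column names call the knockdowns KO, and its Rac7 columns were taken as shZMYND8, since an antibody label gives RACK7 as another name of ZMYND8. The values show a scaling per library that no source describes: 1 fragment is worth 0.881 to 1.16, and 84.0% to 84.9% of values under 1000 fragments were then within 0.05 of a whole number.

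The 60 genes marked unquantified (HIDATA) in any library were left out (none is a member), the 18 variance columns were not used, and counts were rounded. Some marker genes are not reported here. edgeR 4.0.16 in R 4.3.3 fitted all 6 libraries together (trimmed-mean factors 0.966 to 1.057, filterByExpr, 15867 of 28443 genes tested, 3 residual and 6.83 prior degrees of freedom, coefficient of variation 12.3%). CPM are scaled by these factors, standard errors come from the F statistics, and the 95% intervals use 9.83 degrees of freedom. Medians by library use log2 CPM with a prior count of 2. Counts of 0 allow up to 0.109 to 0.145 CPM (3 fragments, counting error only). Members, lists and comparisons were chosen with earlier results of these data known. Named genes were members past the threshold, ATF4, XBP1, DDIT3, HSPA5 and the sensors. Up to 3 called genes per other list and comparison were also named, by smallest adjusted p. SEC61A1 was named beside these, as the 1 gene of its list that rose in shZMYND8. The other members named were chosen after their values were seen. Sequences are RefSeq's on GRCh38.p14, and no hg19 coordinate is used. RefSeq names pseudogenes for 10 members (4 for ATF4, 1 each for XBP1, HSPA5 and AARS), and 16 overlap another coding or long noncoding gene, among them ATF6, CREB3L2, CEBPB, VLDLR, PDIA6, CANX and DDIT3, so these counts are uncertain.

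The fit was tested on simulated data. Alternatives were other scalings and filters, DESeq2 1.42.0, voom of limma 3.58.1, a fit of the groups compared alone, a replicate block, unquantified genes kept, the deposited scaling undone, and each library left out. Tables and figures were made with matplotlib 3.10.9, pandas 2.3.3 and numpy 2.4.6 in Python 3.11.15.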

Additional observations from a re-analysis of the deposited data

How the results depend on the processing

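The counts of changed members moved by more than 1.5 times under some settings. Between shZMYND8 and shLuciferase the count of 7 was 11 with library totals as scaling, 11 with a mean count of at least 50, and 15 with a replicate block. The shares of all genes tested that were called under these settings were 15.7%, 18.5% and 23.3%, against 16.2% in the main fit. Between shJARID1D and shLuciferase the count of 3 was 7 by DESeq2 and 9 with a replicate block. The shares of all genes tested were then 9.74% and 13.1%, against 5.75%. Between shZMYND8 and shJARID1D the count of 12 was 6 with no filter. It moved by less than 1.5 times, to 16, with the block and with these groups fitted alone. The shares of all genes tested were then 7.41%, 23.9% and 27.1%, against 15.7%. The cause was not tested. Leaving out each library in turn gave 3 to 12, 0 to 7 and 1 to 16 in these comparisons. The median of the ATF4 targets minus that of the chaperone and XBP1 targets then ran from 0.06 to 0.33, from 0.17 to 0.38, and from -0.06 to 0.13. No fold change of the 19 members given in full that passed the test changed sign under any setting run. The replicate numbers are shared between groups, but the labels tie them to no batch. Over all genes tested the correlations of same-numbered deviations were 0.10, 0.09 and 0.17, so the block is given here alone. That reason does not cover the ATF4 targets. They were lower in replicate 1 in 16 of 20 genes in shZMYND8, 16 in shJARID1D and 18 in shLuciferase. For them the fit without a block counts this shared difference as spread. With the block 9 of the 20 ATF4 targets rose in shZMYND8 and none fell, while 23.3% of all genes tested were called in either direction.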
